A study of Homo sapiens with 8 samples.

Results

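The mitotic spindle and kinetochore genes are 50 listed genes whose proteins build the spindle, attach chromosomes to it, watch over that attachment and separate the sister chromatids. They were found on the arrays through the RefSeq accessions of the probes, and a gene was taken as measured when at least 1 of its probes was well above background on all 8 arrays, with its brightest such probe standing for it. Of the 50 genes, 48 were matched to a probe and 45 were measured, among 10956 measured genes in all. The genes PLK1 and CENPM were matched to no probe by accession, so that no array values are given for them. SPC24, NCAPG and NCAPH had a probe that was dim on some RIP arrays, so that they enter no count or median given for the 45 measured genes.

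The arrays came from A431 cells, a human cutaneous squamous cell carcinoma line, in which RNA bound to AGO2, the protein that carries microRNAs to their target transcripts, was compared with total RNA. The miR-NC input and miR-NC RIP groups were from cells transfected with a negative control microRNA at 10 nM, and the miR-634 input and miR-634 RIP groups were from cells transfected with miR-634 at 10 nM, all lysed after 24 h. RIP stands for RNA taken down with an AGO2 antibody, and input for total RNA by the study's methods, although the sample labels name a normal rabbit IgG antibody for the input arrays. Each of the 4 groups had 2 arrays, and since the methods speak of work in duplicate without saying whether the transfections were separate, p-values measure only the spread between these arrays, which may be technical.

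All 8 arrays lay on 1 slide and were read in 1 scan, with the inputs in row 1, the RIP arrays in row 2, columns 1 and 2 holding miR-NC and columns 3 and 4 holding miR-634 arrays, so that position and group cannot be told apart. Between 45.6% and 45.8% of spots were well above background on the input arrays, while the miR-NC RIP arrays had 33.6% and 34.5% and the miR-634 RIP arrays 39.97% and 40.02%, and the part of this difference in the results was not tested. Precision is limited by the number of arrays. All 10 squamous epithelial markers were measured, including KRT5, KRT14, EGFR and TP63. Of 10 markers of blood, endothelial, fibroblast and melanocyte cells, 9 were matched to a probe, 2 (VWF and PMEL) were above background on all input arrays and 1 (VWF) was measured.

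In dividing cells, the transcripts of many of these genes accumulate late in the cell cycle and are lost again after division. The Aurora and polo-like kinases drive entry into mitosis and the attachment of chromosomes, the checkpoint proteins hold back the anaphase-promoting complex until every kinetochore is attached, and that complex then releases separase to cut the cohesin between sister chromatids. Many of these promoters carry a cell cycle genes homology region (CHR) and CCAAT boxes, through which their transcription is held down in resting cells and raised in late cycle.

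The microRNA itself is shown because its seed is what pairs with target transcripts. In RefSeq (GRCh38.p14) it lies at chr17:66787132-66787153 on the plus strand, and its seed, bases 2 to 8, is in capitals.
hsa-miR-634: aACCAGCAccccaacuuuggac
Transcript sequences were not used here, so no sites for this seed were counted in the members.

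Promoter windows that end 50 bases after the start were taken from RefSeq (GRCh38.p14), with the first listed window for each gene, and 43 of the 50 genes matched. Unmatched were AURKA, BUB3, CENPM, KNTC1, TPX2, TTK and UBE2C. The letters TTTGAA, the core of the CHR, were searched on both strands and stood in 34 of the 43 windows (79.1%), against 15.4% of all 27305 windows. Within 50 bases of the start they stood in 27 of the 43 windows (62.8%), against 4.67% of all. The letters CCAAT, also on both strands, stood in 31 of the 43 windows (72.1%), against 35.7% of all, and both motifs stood in 24 windows (55.8%), against 6.08% of all. These matches describe the letters in the windows and are not shown to be sites.

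The windows of ZWINT, NUSAP1 and KIF15 are printed because the first 2 genes were among the largest rises of RIP/input from miR-NC to miR-634 cells and the last among the largest falls, and because all 3 were chosen as windows that hold the CHR core. The windows of CENPK and BUB1, which rose and fell more, hold 0 CHR cores, with 3 and 2 CCAAT boxes. Capitals mark the CHR core (TTTGAA, or TTCAAA on the other strand) and the CCAAT box (CCAAT, or ATTGG on the other strand). ZWINT is at chr10:56361210-56361509 on the minus strand, NUSAP1 at chr15:41332631-41332930 and KIF15 at chr3:44761544-44761843, the last 2 on the plus strand.
ZWINT: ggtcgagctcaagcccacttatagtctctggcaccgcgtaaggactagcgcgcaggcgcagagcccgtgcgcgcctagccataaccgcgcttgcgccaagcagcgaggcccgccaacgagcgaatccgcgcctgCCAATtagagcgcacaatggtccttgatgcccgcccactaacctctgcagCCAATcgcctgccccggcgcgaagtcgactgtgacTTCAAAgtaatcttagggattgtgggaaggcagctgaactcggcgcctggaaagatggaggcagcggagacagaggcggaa
NUSAP1: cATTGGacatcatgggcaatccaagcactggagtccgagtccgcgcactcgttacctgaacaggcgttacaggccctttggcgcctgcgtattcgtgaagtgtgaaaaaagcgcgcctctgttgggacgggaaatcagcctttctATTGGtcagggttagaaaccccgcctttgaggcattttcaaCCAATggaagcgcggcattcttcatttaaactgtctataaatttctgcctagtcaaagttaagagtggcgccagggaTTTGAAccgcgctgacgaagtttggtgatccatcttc
KIF15: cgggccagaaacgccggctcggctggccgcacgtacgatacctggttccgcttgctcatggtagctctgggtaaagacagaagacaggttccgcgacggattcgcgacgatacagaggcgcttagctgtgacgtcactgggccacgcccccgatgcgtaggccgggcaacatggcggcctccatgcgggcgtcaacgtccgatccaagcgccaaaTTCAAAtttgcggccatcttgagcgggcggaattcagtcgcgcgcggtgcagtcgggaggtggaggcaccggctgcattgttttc
The windows hold 2 (ZWINT), 3 (NUSAP1) and 0 (KIF15) CCAAT boxes, and with windows chosen in this way nothing is read from the difference.

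RIP/input is given below on the log2 scale, as the RIP level less the input level, where a level is the log2 intensity of the gene's probe minus the 75th percentile of its array, so that levels can be compared between arrays for 1 probe but not between probes. A gene was called higher or lower at an adjusted p under 0.05 in limma, adjusted by the method of Benjamini and Hochberg over the 10956 measured genes. In miR-NC cells, the spindle and kinetochore genes lay low in the AGO2 RIP. Of the 45 genes, 34 were lower in the RIP than in the input, where this held for 45.3% of all measured genes, and 4 were higher, where 33.6% of all were. Their median RIP/input was -0.64 against -0.12 for all genes, a gap of -0.52, and 35 of the 45 lay below the median gene. RIP and input here come from the same kind of cells. When inputs of miR-NC and miR-634 cells are compared, a changed share of dividing cells and changed RNA per cell cannot be told apart.

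In miR-634 cells, the median RIP/input of the 45 genes was -0.88, against -0.17 for all genes, a gap of -0.70. Of the 45 genes, 34 were lower in the RIP than in the input (48.3% of all measured genes) and 8 were higher (36.1% of all), and 34 lay below the median gene. The SD of RIP/input across the 45 genes was 0.66 in miR-NC and 1.07 in miR-634 cells, against 0.87 and 1.12 across all measured genes. The direction of RIP/input against 0 depends on how the arrays were scaled. With scaling on the spike-in probes, the median of all genes shifted by -2.56 in miR-NC cells and by -1.47 in miR-634 cells, and all 45 genes were called lower in the RIP in miR-NC and 41 in miR-634 cells, with 0 and 2 called higher. Over all genes, the calls were then 57 higher and 10745 lower in miR-NC cells and 669 and 9212 in miR-634 cells, where they had been 3678 and 4958, and 3959 and 5289. A gap to the median gene is the same under any such scaling, so positions below are also given against the median gene.

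**Figure D1:**
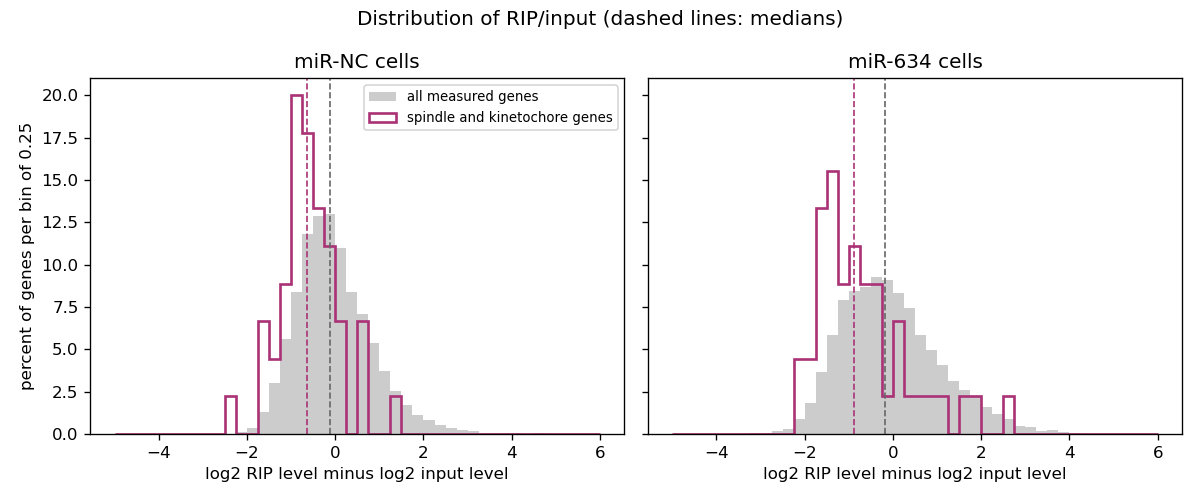
Percent of genes in bins of 0.25 of log2 RIP/input, in miR-NC cells (left) and miR-634 cells (right), for all 10956 measured genes (gray) and the 45 spindle and kinetochore genes (purple outline). Dashed lines mark the medians, -0.12 and -0.64 on the left and -0.17 and -0.88 on the right.

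The enrichment ratio, which is RIP/input in miR-634 cells divided by RIP/input in miR-NC cells, asks which transcripts gained or lost AGO2 association when miR-634 was added. A few spindle genes gained much, led by BUB3, CENPK and NUSAP1 by their brightest probes, and BUB1 and several kinesins lost. The dimmer BUB3 probe gave a log2 enrichment ratio of only 0.81. Of the 45 genes, 8 were called higher (17.8%), against 28.1% of all measured genes, and 21 were called lower (46.7%), against 43.3% of all, so that the share called lower lay near that of all genes and is not a result about the members. Their median log2 enrichment ratio was -0.25 and that of all genes -0.22, a gap of -0.04 that changed sign when no filter was applied or either of 2 arrays was left out, with a range from -1.82 to 2.62 among the 45, of which 21 lay above the median gene and 24 below it. With spike-in scaling, the median of all genes shifted by 1.09 to 0.87, and 34 of the 45 were called higher and 1 lower, with 7181 higher and 180 lower over all genes in place of 3077 and 4743. All members but BUB1 and KIF15 then had a positive log2 enrichment ratio, so that the other negative enrichment ratios given below for members turned positive. With the percentile taken over all probes, the median of all genes shifted by 0.12, and by 0.11 for RIP/input in miR-634 cells. When each gene was instead tested against the median gene, an alternative chosen after seeing the data, 9 of the 45 were called higher and 16 lower, against 35.1% and 30.6% of all genes.

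**Figure D2:**
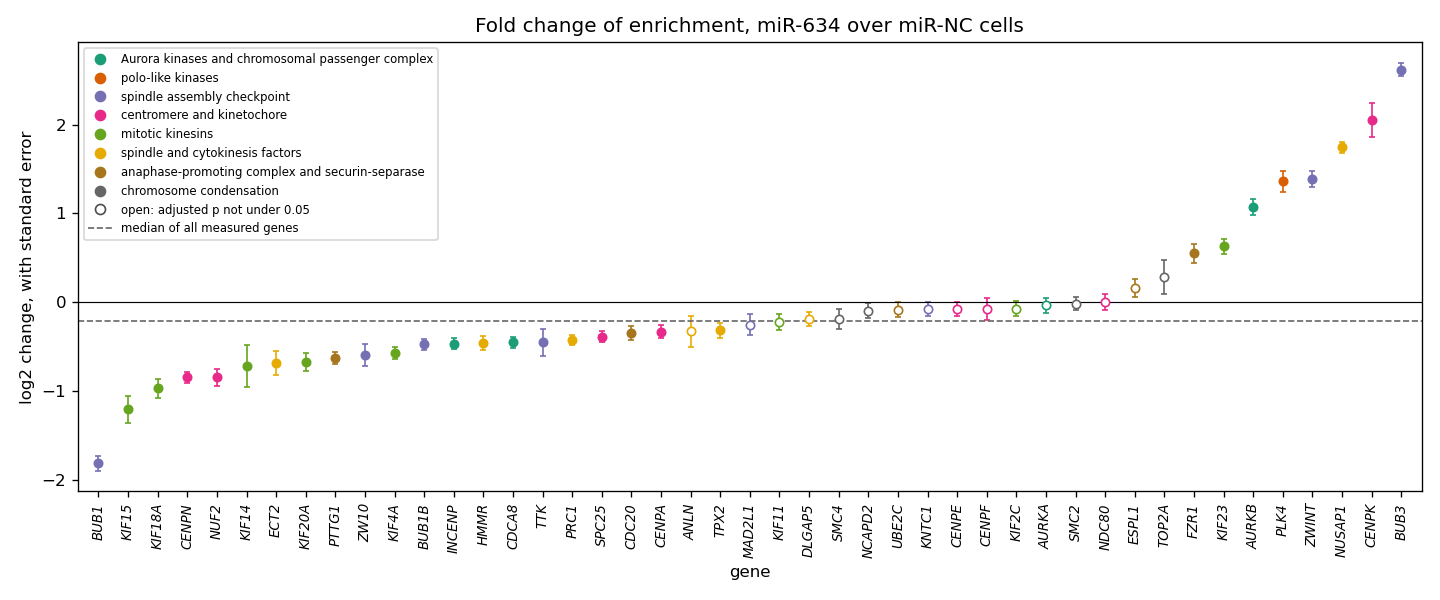
Log2 enrichment ratio (miR-634 over miR-NC cells) of each of the 45 genes, with its standard error, in order of size and colored by role. Filled circles have an adjusted p under 0.05, and the dashed line is the median of all measured genes, -0.22. BUB3 stands highest at 2.62 and BUB1 lowest at -1.82, and with spike-in scaling all values would lie 1.09 higher, so that those of all but BUB1 and KIF15 would be positive.

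The RIP and input levels behind this ratio were tested on their own in the same fit. In the RIP, 9 of the 45 genes were higher in miR-634 cells (30.9% of all measured genes) and 24 were lower (46.5% of all), with a median change of -0.23 against -0.18 for all genes. With the percentile taken over all probes, the median RIP change of all genes shifted by 0.17, to -0.01, and 12 of the 45 were called higher and 14 lower, with 4047 higher and 3711 lower over all genes in place of 3384 and 5097. With spike-in scaling it shifted by 0.86, with 32 of the 45 genes higher and 1 lower, and 7257 and 356 over all. In the input, 5 of the 45 genes were higher in miR-634 cells (11.7% of all) and 6 were lower (12.1% of all), and the median change was 0.00 for the 45 genes and -0.00 for all, so that these shares lay near those of all genes and are not a result about the members. With spike-in scaling, the median input change of all genes shifted by -0.22, with 25 genes higher and 751 lower in place of 1285 and 1323, and limma then called 0 of the 45 higher and 0 lower, where 2265 of all genes had an unadjusted p under 0.05. With the percentile over all probes, 1070 of all genes were higher and 658 lower, and 2 and 3 of the 45. Without 1 of the 4 input arrays, fewer of the 45 genes and fewer of all genes were called in the input, in both directions. The comparisons share arrays with one another, so their values for a gene are not independent.

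Among the Aurora kinases and the chromosomal passenger complex, which corrects faulty attachments and guides cytokinesis, all 4 listed genes were measured. AURKB (NM_004217), the kinase of the complex, had log2 levels of -1.74 and -1.75 on the miR-NC input arrays, -1.11 and -1.10 on the RIP arrays of these cells, -1.77 and -1.76 on the miR-634 input arrays and -0.14 and 0.03 on the miR-634 RIP arrays. Both miR-634 RIP arrays lay above all others, and the inputs of the 2 kinds of cells were close together. Its log2 RIP/input was 0.64 in miR-NC and 1.72 in miR-634 cells, an enrichment ratio of 2.11 (log2 1.07, SE 0.09, adjusted p = 7.43e-05). The positive RIP/input in miR-NC cells turned negative with spike-in scaling, and that in miR-634 cells was 0.24 and not called.

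INCENP (NM_001040694), the scaffold that binds the Aurora kinase, had input levels of -0.74 and -0.79 in miR-NC cells and -0.28 and -0.27 in miR-634 cells, and RIP levels of -1.40 and -1.42, and -1.38 and -1.39. The input arrays of the 2 kinds of cells did not overlap, whereas the RIP levels lay close together. Its input rise of 0.49 (SE 0.04, adjusted p = 0.00104) was the largest among the 45 genes, at the 97.8th percentile of all measured genes. It was called in 19 of 20 alternatives, and was 0.26 and not called with spike-in scaling. Its log2 enrichment ratio was -0.47. CDCA8, which targets the complex to the centromere, fell in the input by 0.21 (adjusted p = 0.0188) and had a log2 enrichment ratio of -0.45. With spike-in scaling, its input change was -0.44 and was not called. AURKA, which acts at the spindle poles, had a log2 enrichment ratio of -0.03 (adjusted p = 0.736).

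Of the polo-like kinases, PLK4, which starts the duplication of centrioles, was measured. PLK4 (NM_014264) had input levels of -3.48 and -3.46 in miR-NC cells and -3.81 and -3.84 in miR-634 cells. Its RIP levels were -4.51 and -4.75 in miR-NC cells and -3.57 and -3.69 in miR-634 cells. The input was thus lower and the RIP higher in miR-634 cells, with no overlap in either. Its log2 RIP/input went from -1.16 to 0.20 (adjusted p = 0.0649 in miR-634 cells, and -1.27 with spike-in scaling), an enrichment ratio of 2.57 (log2 1.36, SE 0.12, adjusted p = 0.000104), and its input change was -0.36 (adjusted p = 0.0284), called in 13 of 20 alternatives.

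By the brightest probes, the spindle assembly checkpoint held both extremes of the enrichment ratio. Of its 8 genes, 2 were called higher, against 28.1% of all genes, and 4 lower, against 43.3%, so that these counts lay near the background, and 3 lay above the median gene. BUB3 (NM_004725), which brings the BUB kinases to the kinetochore, had levels of -0.05 and -0.08 on the miR-NC input, -0.04 and -0.06 on the miR-NC RIP, -0.40 and -0.45 on the miR-634 input and 2.26 and 2.15 on the miR-634 RIP arrays. The miR-634 RIP arrays stood far above the other 6, and the miR-634 input arrays below them. RIP/input was 0.01 in miR-NC and 2.64 in miR-634 cells, an enrichment ratio of 6.15 (log2 2.62, SE 0.08, adjusted p = 1.26e-06) at the 98.6th percentile of all genes, and the input change was -0.37 (adjusted p = 0.00566). The dimmer BUB3 probe, for NM_001007793, gave an enrichment ratio of 1.75 and an input change of -0.04, so that the size of both changes depended on the probe. The RIP/input of this dimmer probe was -0.53 in miR-NC cells, called lower in a separate fit of all passing probes, and 0.28 in miR-634 cells.

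BUB1 (NM_004336), a checkpoint kinase that marks the inner centromere, went the other way. Its levels were -0.28 and -0.35 on the miR-NC input, 0.92 and 0.96 on the miR-NC RIP, -0.14 and -0.25 on the miR-634 input and -0.73 and -0.79 on the miR-634 RIP arrays. The RIP arrays lay above the inputs in miR-NC cells and below them in miR-634 cells. RIP/input was 1.25 in miR-NC cells, the highest of the 45 genes, and -0.56 in miR-634 cells, a log2 enrichment ratio of -1.82 (SE 0.08, adjusted p = 6.25e-06) at the 1.30th percentile of all genes. With spike-in scaling, the RIP/input of BUB1 in miR-NC cells was -1.31.

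ZWINT (NM_032997), which links the outer kinetochore to the complex that recruits dynein, had input levels of 1.52 and 1.51 in miR-NC cells and 1.56 and 1.48 in miR-634 cells, and RIP levels of 0.41 and 0.41, and 1.88 and 1.73. The inputs overlapped and the RIP levels did not. Its RIP/input of -1.10 in miR-NC and 0.28 in miR-634 cells gave an enrichment ratio of 2.62 (log2 1.39, SE 0.09, adjusted p = 2.73e-05), and its dimmer probe gave 2.82. The positive value in miR-634 cells became -1.19 with spike-in scaling. ZW10, of the dynein-recruiting complex, had a log2 enrichment ratio of -0.59, and KNTC1, its partner, -0.08 (adjusted p = 0.384).

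BUB1B, the checkpoint inhibitor of the anaphase-promoting complex, was lower in the RIP in both kinds of cells, at -0.74 and -1.22, with a log2 enrichment ratio of -0.47 (adjusted p = 0.000528) that became 0.61 with spike-in scaling. MAD2L1, which forms that inhibitor with it, had a RIP/input of -1.53 in miR-NC and -1.78 in miR-634 cells, and TTK, the kinase that starts the checkpoint signal, -1.34 and -1.79. In miR-NC cells they stood at the 1.68th and 3.30th percentiles of all genes. The log2 enrichment ratio was -0.45 for TTK (adjusted p = 0.0351) and -0.25 for MAD2L1 (adjusted p = 0.0898, not called).

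**Figure D3:**
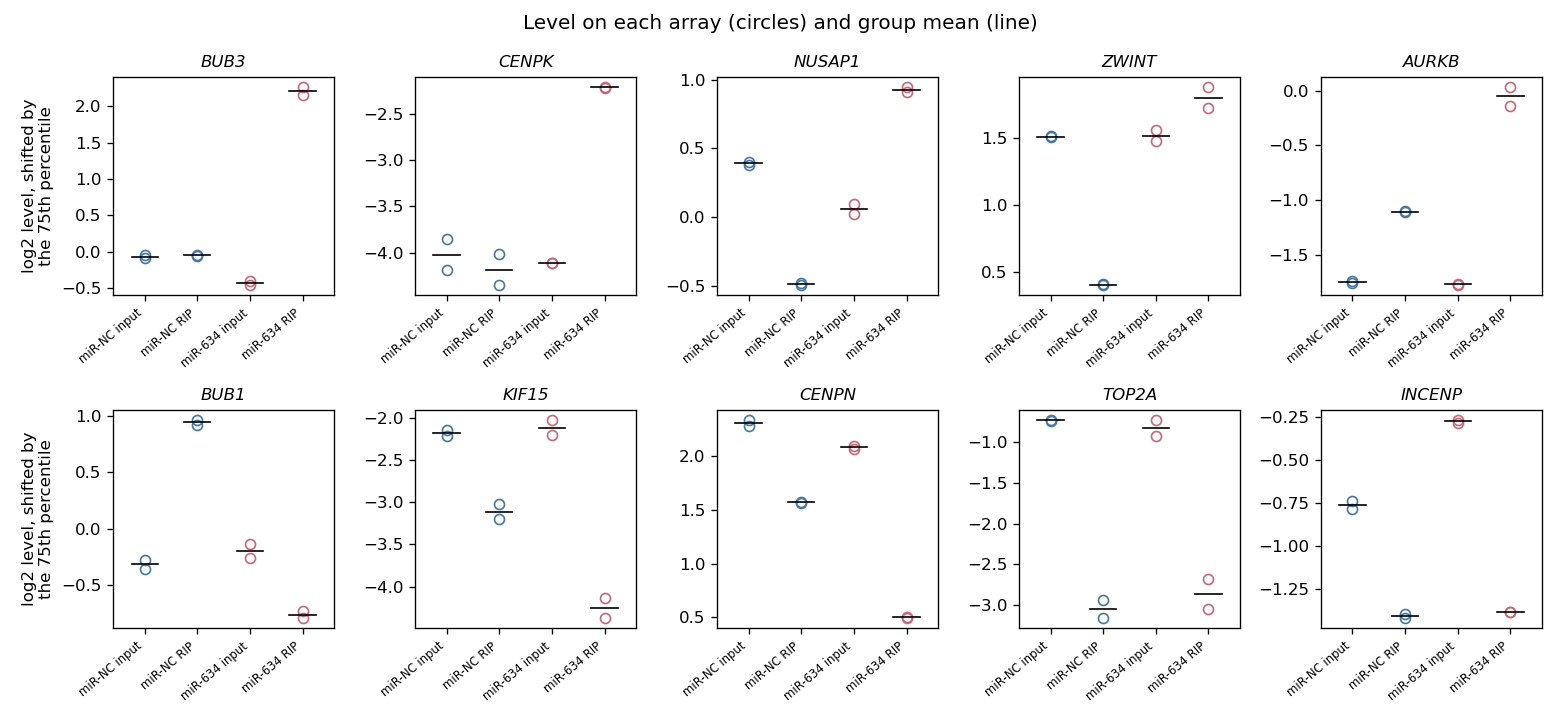
Log2 level, shifted by the 75th percentile of each array, on each of the 8 arrays (circles) with the group mean (line), for 10 genes. The miR-634 RIP arrays lie above the other arrays for BUB3, CENPK, NUSAP1, ZWINT and AURKB and below them for BUB1, KIF15 and CENPN. Vertical scales differ between panels.

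Of the 10 centromere and kinetochore genes, 8 were measured. By their brightest probes, all 8 lay below the median gene in RIP/input in miR-NC cells, with 7 called lower, against 45.3% of all genes. The enrichment ratio was called higher for 1, against 28.1% of all genes, and lower for 4, against 43.3%. CENPK (NM_022145), a subunit of the inner kinetochore network, had levels of -4.19 and -3.85 on the miR-NC input, -4.35 and -4.02 on the miR-NC RIP, -4.11 and -4.11 on the miR-634 input and -2.21 and -2.22 on the miR-634 RIP arrays. Only the miR-634 RIP arrays stood apart. Its enrichment ratio was 4.15 (log2 2.05, SE 0.20, adjusted p = 0.000144), with a RIP/input of -0.16 in miR-NC cells (adjusted p = 0.321) and 1.89 in miR-634 cells. CENPK was dim on all but the miR-634 RIP arrays. On the miR-NC RIP arrays, the lowest level of any probe above background averaged -5.23. Its log2 enrichment ratio ranged from 1.51 to 2.22 over the alternatives, with spike-in scaling and no filter left aside.

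CENPN (NM_018455), which reads the centromeric nucleosome, had input levels of 2.34 and 2.28 in miR-NC cells and 2.07 and 2.10 in miR-634 cells. Its RIP levels were 1.57 and 1.57, and 0.51 and 0.49. Both the input and the RIP were lower in miR-634 cells, with no overlap. The RIP change of -1.07 became -0.21 and was not called with spike-in scaling. The log2 enrichment ratio was -0.85 (SE 0.06, adjusted p = 4.5e-05), which became 0.24 with spike-in scaling, and the input change was -0.23 (adjusted p = 0.0147), called in 10 of 20 alternatives. A dimmer probe, for NM_001100624, gave -0.74 for the enrichment ratio but differed in direction elsewhere, with 0.08 for the input change and 0.07 for RIP/input in miR-NC cells, where the brighter probe had -0.74.

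CENPE, a kinesin-like motor that carries chromosomes to the equator, and CENPF, a large protein of the outer kinetochore, were among the lowest in RIP/input by their brightest probes. CENPE had -1.58 in miR-NC and -1.66 in miR-634 cells, and CENPF had -1.59 and -1.66. Their log2 enrichment ratios were -0.08 (adjusted p = 0.415) and -0.07 (adjusted p = 0.606), although the dimmer CENPF probe gave -0.52, with a RIP/input of -0.88 in miR-NC cells. The input level of CENPE rose by 0.20 (adjusted p = 0.047), a call that held in 7 of 20 alternatives and a change that became -0.03 with spike-in scaling.

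NDC80, which binds the microtubule directly, had a RIP/input of -0.62 in both kinds of cells and a log2 enrichment ratio of 0.00 (SE 0.09, adjusted p = 0.971), which was 1.09 and called with spike-in scaling. NUF2, its partner in the same complex, fell in the RIP by 0.96 (adjusted p = 2.03e-05), which was -0.094 and not called with spike-in scaling, and its log2 enrichment ratio was -0.85 (adjusted p = 0.000259). SPC25, another subunit, had -0.39 (adjusted p = 0.00132). The remaining subunit, SPC24, was above background on 1 of 2 miR-NC RIP arrays and on all others, so that no fold change is given for it.

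Among the mitotic kinesins, which slide and depolymerize microtubules, all 8 genes were measured and all 8 were lower in the RIP than in the input in miR-NC cells, where 45.3% of all genes were, each also below the median gene. The enrichment ratio was called lower for 5, against 43.3% of all genes, and higher for 1, against 28.1%, with 2 above the median gene, and the median of the group was -0.62. KIF15 (NM_020242), which helps hold the spindle bipolar, had input levels of -2.22 and -2.15 in miR-NC cells and -2.03 and -2.21 in miR-634 cells. Its RIP levels were -3.03 and -3.20, and -4.37 and -4.13. The inputs overlapped and the RIP levels did not. Its RIP/input was -0.93 in miR-NC and -2.14 in miR-634 cells, the lowest of the 45 genes there, with a log2 enrichment ratio of -1.21 (SE 0.15, adjusted p = 0.000498) that was -0.12 and not called with spike-in scaling.

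KIF18A, which dampens chromosome movements, had a log2 enrichment ratio of -0.97 (adjusted p = 0.000248), which became 0.12 with spike-in scaling. KIF23 (NM_138555), a motor of the central spindle, was the kinesin that rose. Its input levels were 0.78 and 0.90 in miR-NC cells and 1.11 and 1.07 in miR-634 cells, and its RIP levels 0.41 and 0.41, and 1.33 and 1.25. Input and RIP were both higher in miR-634 cells, without overlap. The enrichment ratio was 1.55 (log2 0.63, SE 0.08, adjusted p = 0.000564), and the input rose by 0.26 (adjusted p = 0.0236), called in 12 of 20 alternatives. KIF4A, which shortens the central spindle, rose in the input by 0.24 (adjusted p = 0.0154), also called in 12 of 20, and had a log2 enrichment ratio of -0.58. KIF11, the motor that pushes the spindle poles apart, had -0.22 (adjusted p = 0.0594, not called).

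**Figure D4:**
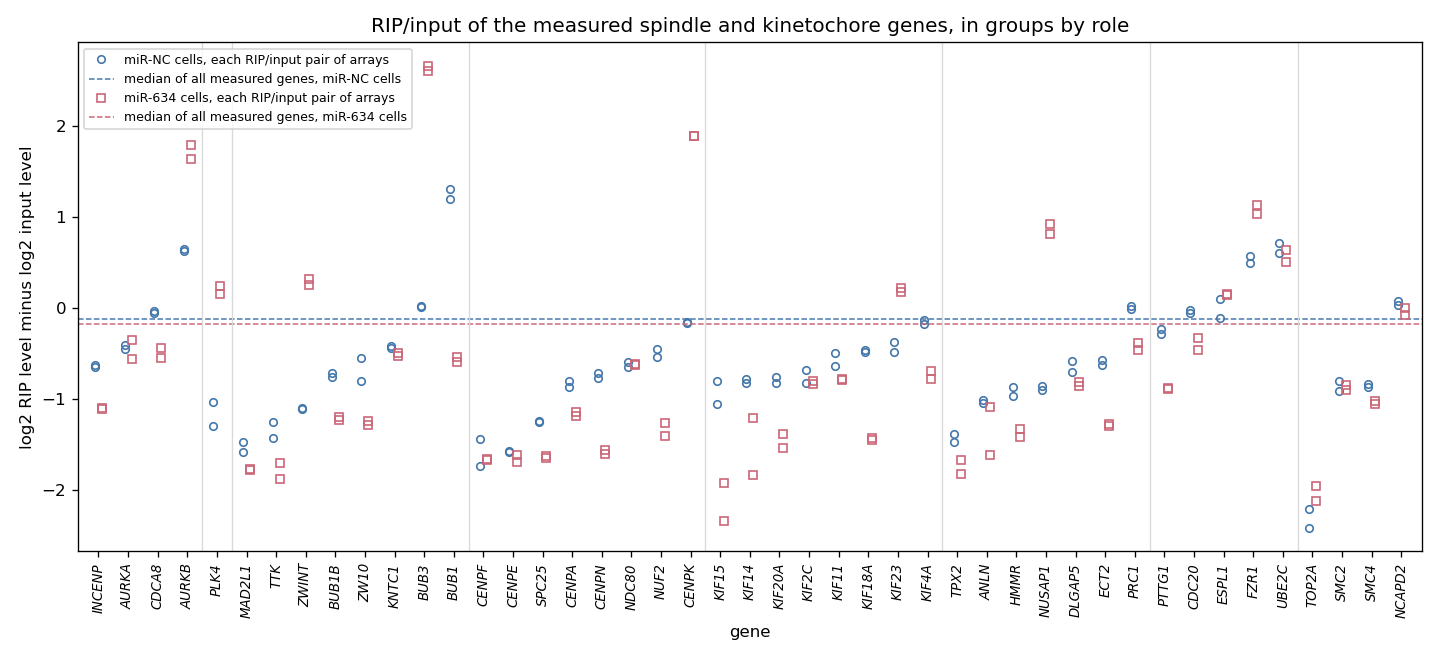
Log2 RIP/input of each of the 45 genes, grouped by role (gray lines), for the arrays numbered 1 and 2 in miR-NC cells (blue circles) and miR-634 cells (red squares). The arrays are paired by their number only. Dashed lines are the medians of all measured genes, -0.12 and -0.17. TOP2A stands lowest in miR-NC cells at -2.32 on average and BUB3 highest in miR-634 cells at 2.64.

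Among the 7 spindle and cytokinesis factors, 6 were called lower in the RIP in each kind of cells, although not the same 6, against 45.3% of all genes in miR-NC and 48.3% in miR-634 cells. The enrichment ratio was called higher for 1 and lower for 4, where 28.1% and 43.3% of all genes were. NUSAP1 (NM_016359), which bundles spindle microtubules near the chromosomes, had input levels of 0.38 and 0.40 in miR-NC cells and 0.10 and 0.02 in miR-634 cells. Its RIP levels were -0.48 and -0.49, and 0.91 and 0.95. The input was lower and the RIP higher in miR-634 cells, without overlap. RIP/input went from -0.88 to 0.87, an enrichment ratio of 3.35 (log2 1.74, SE 0.07, adjusted p = 2.98e-06), and the input change was -0.33 (adjusted p = 0.00506). With spike-in scaling, the positive RIP/input in miR-634 cells became -0.61.

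TPX2, which activates AURKA on the spindle, was low in the RIP in both kinds of cells, at -1.43 and -1.75, and had a log2 enrichment ratio of -0.32 (adjusted p = 0.0164), which was not called with the percentile over all probes (-0.20) and became 0.77 with spike-in scaling. PRC1, which crosslinks the microtubules of the central spindle, had a RIP/input of 0.00 in miR-NC cells (adjusted p = 0.982) and -0.43 in miR-634 cells. Its input rise of 0.17 (adjusted p = 0.034) turned negative and was not called with spike-in scaling.

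Of the 5 anaphase-promoting complex and securin-separase genes, 2 were called higher in RIP/input in miR-NC cells, against 33.6% of all genes, 1 was called lower, against 45.3%, and 4 lay above the median gene, and no test set the roles against each other. UBE2C, the ubiquitin-conjugating enzyme of the complex, had 0.66 in miR-NC and 0.57 in miR-634 cells, and FZR1, its activator in late mitosis and G1, had 0.53 and 1.08. With spike-in scaling, the values in miR-NC cells became -1.91 for UBE2C and -2.03 for FZR1, and those in miR-634 cells became -0.90 for UBE2C and -0.39 for FZR1. The enrichment ratio of FZR1 was 1.46 (log2 0.55, SE 0.11, adjusted p = 0.00344), and its input change was 0.12 (adjusted p = 0.306).

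CDC20, the activator that the checkpoint restrains, had a RIP/input of -0.04 in miR-NC and -0.39 in miR-634 cells. Its log2 enrichment ratio was -0.35 (adjusted p = 0.00652), which was not called with the percentile over all probes (-0.23) and became 0.74 with spike-in scaling. PTTG1, the securin that holds separase inactive, had input levels of 3.57 and 3.59 in miR-NC cells and 3.33 and 3.30 in miR-634 cells, which did not overlap. It fell in the input by 0.26 (adjusted p = 0.0103), called in 12 of 20 alternatives, and its log2 enrichment ratio was -0.63 (adjusted p = 0.000198). ESPL1, separase itself, had 0.16 (adjusted p = 0.214).

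Of the 6 chromosome condensation genes, 4 were measured, and by their brightest probes their adjusted p for the enrichment ratio lay between 0.181 and 0.836. TOP2A (NM_001067), the topoisomerase that untangles sister chromatids, had the lowest RIP/input of the 45 genes in miR-NC cells. Its levels were -0.73 and -0.74 on the miR-NC input, -2.94 and -3.16 on the miR-NC RIP, -0.73 and -0.93 on the miR-634 input and -2.69 and -3.05 on the miR-634 RIP arrays. The RIP arrays lay below the input arrays in both kinds of cells, and the 2 kinds of cells overlapped in both. RIP/input was -2.32 in miR-NC cells (adjusted p = 1.01e-05), at the 0.0365th percentile of all genes, and -2.04 in miR-634 cells, and the log2 enrichment ratio was 0.28 (SE 0.19, adjusted p = 0.227).

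The condensin subunits SMC2 and SMC4, which fold mitotic chromosomes, had a RIP/input of -0.86 and -0.85 in miR-NC cells, while NCAPD2, another subunit, had 0.06 (adjusted p = 0.427). The brighter SMC2 probe had a log2 enrichment ratio of -0.02 (adjusted p = 0.836). The dimmer SMC2 probe had 0.44 and the dimmer SMC4 probe -0.24, both called in a separate fit of all passing probes. NCAPG and NCAPH were above background on all input arrays, on 0 of 2 miR-NC RIP arrays and on 1 of 2 miR-634 RIP arrays. For NCAPG, the mean input level in miR-NC cells was at least 1.16-fold that of the RIP, where each RIP array was set to the higher of the probe's own level and the lowest level of any probe above background there. The same bound was under 1 for NCAPH, so that no fold is given.

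**Figure D5:**
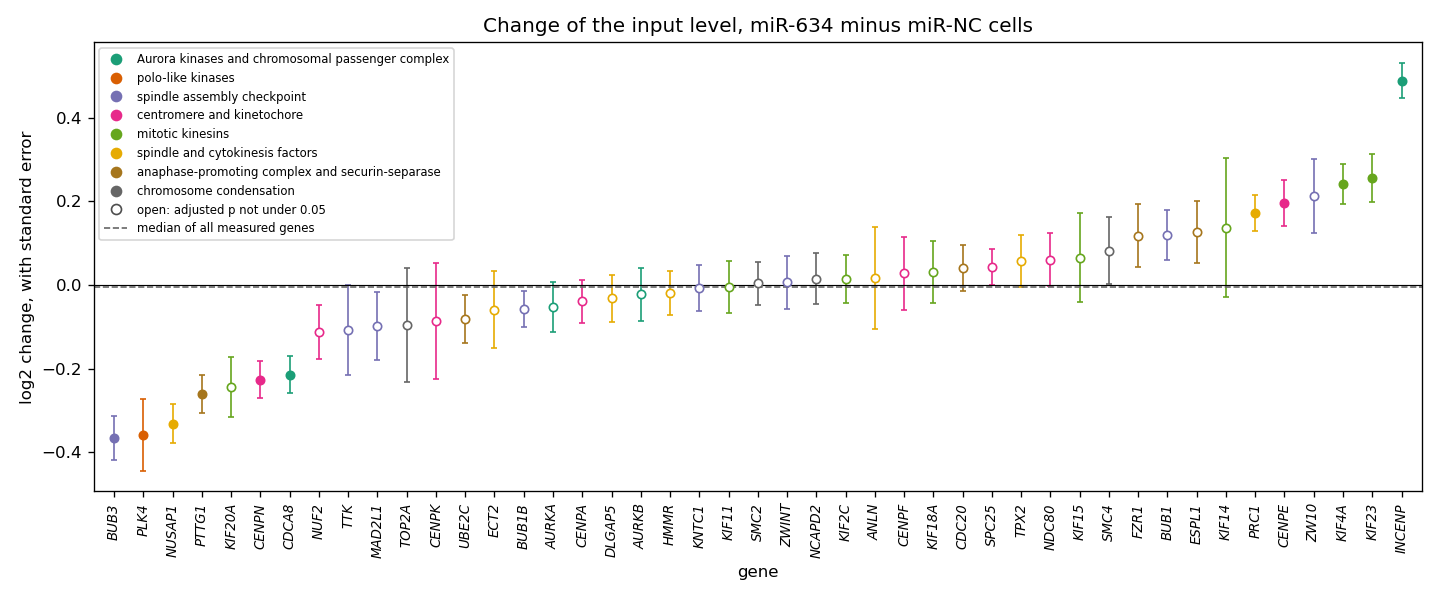
Change of the log2 input level (miR-634 minus miR-NC cells) of each of the 45 genes, with its standard error, in order of size and colored by role. Filled circles have an adjusted p under 0.05. INCENP stands highest at 0.49 and BUB3 lowest at -0.37, and 34 of the 45 genes were not called. With spike-in scaling all values would shift by -0.22, and the filled points of CENPE and PRC1 would be negative.

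A separate list held other mitotic genes. Of its 94 genes, 83 were measured, with a median RIP/input of -0.56 in miR-NC and -0.90 in miR-634 cells, and an enrichment ratio called higher for 16 (19.3%, against 28.1% of all genes) and lower for 34 (41.0%, against 43.3%). The largest rise among them was that of CENPW (log2 2.38, adjusted p = 0.000245) and the largest fall that of CENPH (log2 -2.11, adjusted p = 2.11e-06), both of the inner kinetochore. In the input, CIT, a kinase of cytokinesis, rose most among the genes called, by 0.50 (adjusted p = 0.00241), and CDC23, a subunit of the anaphase-promoting complex, changed by -0.50 (adjusted p = 0.00405). BIRC5, the survivin subunit of the passenger complex, had an enrichment ratio of 3.35 and an input change of -0.35.

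CCNB1, the mitotic cyclin, had an enrichment ratio of 4.42 (log2 2.14, adjusted p = 1.42e-06) without a called input change (-0.09, adjusted p = 0.202). Its kinase CDK1 had a log2 enrichment ratio of -0.18 (adjusted p = 0.0596, not called). Of 12 regulators of late cell cycle transcription, 10 were measured and 9 were called lower in the enrichment ratio, against 43.3% of all genes, with a median of -0.60 against -0.22, but with spike-in scaling, which adds 1.09, the ratios of all 10 are positive. FOXM1, an activator of these promoters, had -0.57 (adjusted p = 0.000545) and an input change of 0.19 (adjusted p = 0.0463), both of which change sign with spike-in scaling. The 43 measured DNA replication genes of 45, which act earlier in the cycle, had a median RIP/input of -0.21 in miR-NC and -0.30 in miR-634 cells, and an enrichment ratio called higher for 15 (34.9%, against 28.1% of all genes) and lower for 19 (44.2%, against 43.3%). No test set these lists against one another.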

How the data were processed

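Deposited by the authors was the intensity of every spot on 8 single-color Agilent arrays, corrected for local background and spatial trends by Feature Extraction (12.0.1.1 in the file headers, 9.1 in the submitters' processing notes). They also deposited log2 values from GeneSpring, which tracked log2 intensity minus the 75th percentile of the whole array, with each probe centered, and served as an alternative. Their column medians were -0.44, -0.38, 0.88, 0.86, -0.42, -0.39, 0.36 and 0.32 in miR-NC and then in miR-634 cells, with the 2 inputs before the 2 RIP arrays of each.

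Control and outlier spots were left out, spots of a probe were averaged, and the 75th percentile of the array was taken off each log2 value, computed over the 16805 probes (28.9% of 58201) above background on all 8 arrays. No spot was saturated. RefSeq accessions stood beside 33080 probes, of which 31104 led to 22439 symbols. Of the 45 measured members, 36 had 1 passing probe. Calls for dimmer probes came from a separate fit of the 16805 passing probes, with adjustment over these. Changes were tested two-sided with limma 3.58.1 under R 4.3.3, in a model of the 4 groups with moderated variances, and Benjamini-Hochberg adjustment at 0.05, and scripts were tested on simulated data. Plots used Python 3.11.15, pandas 2.3.3 and matplotlib 3.10.9, with SciPy 1.17.1 for the test against the median gene.

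Members and lists were chosen with earlier results of these data known. Named are, for each of the 5 comparisons, the 4 largest rises and falls at the threshold with 1 direction in arrays numbered 1 and in arrays numbered 2, 1 gene per role (AURKB, PLK1, BUB1B, NDC80, KIF11, TPX2, CDC20 and TOP2A), the unmeasured members, members whose probes differ in direction, BIRC5, CDK1, CCNB1, FOXM1 and the extremes of the other mitotic genes. AURKA, CDCA8, ESPL1, KNTC1, NCAPD2, PRC1, SMC2, SMC4, SPC25 and ZW10 were added after their values were seen. Alternatives were quantile normalization with or without normexp (offset 50), the values of the authors, median, all-probe percentile and spike-in scaling, filters on inputs only or none, probe means, an intensity trend, a replicate block, leaving out each array and, chosen after seeing the data, a test against the median gene.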

Additional observations from a re-analysis of the deposited data

Results flagged for a closer look

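RIP/input differed between miR-634 and miR-NC cells, by limma's test of the difference itself, for 8 spindle and kinetochore genes that were higher and 21 that were lower in miR-634 cells (17.8% and 46.7%, against 28.1% and 43.3% of all genes, so that the lower share is near that of all). With spike-in scaling the counts were 34 and 1. For 4 genes, RIP/input was called in opposite directions in the 2 kinds of cells by percentile scaling, and with spike-in scaling all 4 lay below the input in both. BUB1 was above the input in miR-NC cells and below it in miR-634 cells, with a log2 enrichment ratio of -1.82. NUSAP1, ZWINT and KIF23 were below the input in miR-NC cells and above it in miR-634 cells, with log2 enrichment ratios of 1.74, 1.39 and 0.63. KIF23 had the smallest of these RIP/input values in miR-634 cells, 0.20 (limma, adjusted p = 0.0156). With normexp and quantile normalization, 7 members in place of 8 were called higher than the input in miR-634 cells.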

How the results depend on the processing

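The low RIP/input of the members against the median gene kept its direction under every alternative run, while counts of calls moved with scaling and filter. Only the members' extremes in each comparison, the genes named by role in the enrichment ratio and CENPN were followed through all alternatives. Of their results, 888 kept direction and side of the threshold, 68 lost the call, 6 gained a call and 18 reversed. Other printed results were not counted, among them the enrichment ratios of INCENP, NUF2 and PTTG1 and the input calls of CDCA8 and PRC1. Scaling on spike-ins adds 1 constant to all genes of a comparison. It gave 34 members higher and 1 lower in the enrichment ratio (7181 and 180 of all genes), 0 higher in miR-NC cells (57 and 10745 of all), 2 higher in miR-634 cells (669 and 9212 of all), 0 higher and 0 lower in the input by limma (25 and 751 of all, with 2265 at an unadjusted p under 0.05) and 32 higher and 1 lower in the RIP (7257 and 356 of all). By this constant, called RIP/input values reversed in miR-NC cells for AURKB (-1.92), BUB1 (-1.31), FZR1 (-2.03) and UBE2C (-1.91) and in miR-634 cells for FZR1 (-0.39), UBE2C (-0.90), NUSAP1 (-0.61), ZWINT (-1.19) and KIF23 (-1.28), and uncalled positive values such as that of PLK4 (-1.27) also turned negative. Among the results followed, the log2 enrichment ratio reversed for BUB1B (0.61), CDC20 (0.74), CENPN (0.24), KIF11 (0.87), KIF18A (0.12) and TPX2 (0.77), and the input change for CENPE (-0.029). Over the 45 members, 43 of these ratios were then positive and 2 negative, in place of 11 and 34. The called input rise of PRC1 also became negative (-0.052). The log2 enrichment ratio of NDC80 was 0.00 by percentile scaling and 1.09 and called with spike-in scaling. It was -0.021 with normexp and quantile normalization, -0.022 with quantile normalization alone and ranged from -0.053 to 0.061 without single arrays. With no filter, which adds dim genes to the background, the gap to the median gene was 0.27 for the enrichment ratio and 0.32 for the RIP (both reversed), -1.08 in miR-NC cells, -1.21 in miR-634 cells and 0.082 in the input, with 1 member higher and 2 lower in the input and, over all genes, 8668 lower in the enrichment ratio, 9994 higher in miR-NC cells, 9074 higher in miR-634 cells, 380 higher and 574 lower in the input and 10432 lower in the RIP. The gap of the enrichment ratio was -0.10 with normexp, -0.028 with a filter on inputs only and -0.088 with probe means, that of the RIP -0.12 with normexp and -0.10 with quantile normalization, and that in miR-634 cells -0.73 with quantile normalization and -0.63 with a filter on inputs only. In the input, 3 members were higher with normexp (1248 of all genes), with the input filter (913 of 13661 genes) and with probe means (1268 of all). With the authors' values and with the percentile over all probes, 2 members were higher and 3 lower. These gave 1071 and 1070 higher and 664 and 658 lower genes in all. With the replicate block, 3 members were higher and 7 lower in the input (1095 and 1173 of all genes). In the RIP, 14 members were lower with the authors' values and with the percentile over all probes (3722 and 3711 of all genes). Against the median gene, an alternative chosen after seeing the data, 14 were higher and 15 lower (38.8% and 35.5% of all genes). Without single arrays, the gap ranged from -0.11 to 0.018 for the enrichment ratio, from -0.59 to -0.52 in miR-NC cells, from -0.72 to -0.68 in miR-634 cells and from -0.076 to -0.045 in the RIP, so that the sign of the gap of the enrichment ratio was not stable: it was 0.0062 without miR-634 input array 1 and 0.018 without miR-634 RIP array 2. Input calls ranged from 1 to 5 members higher and 2 to 6 lower, and from 397 to 1420 and 549 to 1471 of all genes. Members higher and lower were 1 and 2 without miR-NC input array 1, 2 and 2 without array 2, 1 and 3 without miR-634 input array 1 and 1 and 2 without array 2, where the lone array is assumed to vary like the other groups. Apart from the spike-in constant and the filter, the cause of these differences was not tested. Fewer spots were well above background on the RIP arrays than on the inputs.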
